A study of Mus musculus with 12 samples.

Results

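Very wide ZBTB43 peaks were the 435 peaks of the TKO list that measured 700 bp or more on autosomes, out of 14554 autosomal peaks and 14694 peaks in all. They were chosen by their width in that list (end minus start), so their width and their TKO score are given as a description. They were set beside the 5510 autosomal TKO peaks of 200 to 300 bp, and beside the SssI peaks that overlapped them by at least 1 bp.

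The peaks came from in vitro affinity sequencing, in which purified full-length ZBTB43 fused to maltose-binding protein (MBP) captured sonicated mouse genomic DNA and the bound fragments were sequenced. TKO DNA was unmethylated DNA of a male mouse embryonic stem (ES) cell line of 1 clone with the genotype Dnmt1-/-Dnmt3a-/-Dnmt3b-/-, labelled with an age of 3.5 dpc. SssI DNA was lung DNA of 2-month-old wild-type C57BL/6N males, methylated at its CpGs by the bacterial enzyme M.SssI after fragmentation. MBP alone served as background on each DNA. Each of these 4 conditions had 2 libraries, and the sperm libraries of the series were not analysed here. The duplicates were pooled before peak calling and 1 list was deposited per DNA, so the values have no spread between replicates and no test between the DNAs was made. The DNAs differed in cell type, genotype and methylation together, and these cannot be told apart. The score of a peak is 10 times the −log10 q-value of the authors' peak caller. It was compared within its own list only, and the exact read depth behind it is unknown. Intervals are Wilson 95% intervals over peaks and cover counting error only.

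ZBTB43 is a zinc finger protein with a BTB domain. Alternating purine-pyrimidine sequences, in which every purine is followed by a pyrimidine and the reverse, can turn from right-handed B-DNA into left-handed Z-DNA, with CG and CA dinucleotides among the most prone. Mammalian genomes hold many such tracts as CA repeats, and also tandem arrays of longer units (minisatellites), whose copy number varies and whose units drift apart by mutation.

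The reference sequence inside the very wide peaks was sorted into 3 kinds, by tracts and by a limit on self-identity. The first was a tandem array of a longer unit, many of which held a short recurring element. The stretches below, of 120 bases each on the plus strand of GRCm38 (mm10), are shown because the element CACACT or its reverse complement AGTGTG, in capitals, marks the unit by eye. They are the densest stretch in the widest member (Map6), the next widest (Stxbp5), a member among the highest SssI scores (Qrsl1) and the array with the lowest TKO scores (4930444P10Rik).
Map6, chr7:99296594-99296713: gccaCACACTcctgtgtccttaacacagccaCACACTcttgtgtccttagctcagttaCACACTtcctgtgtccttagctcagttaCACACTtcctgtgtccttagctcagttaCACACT
Stxbp5, chr10:9854299-9854418: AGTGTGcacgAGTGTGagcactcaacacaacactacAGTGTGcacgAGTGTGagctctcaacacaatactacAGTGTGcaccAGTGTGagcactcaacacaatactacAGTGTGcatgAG
Qrsl1, chr10:43889524-43889643: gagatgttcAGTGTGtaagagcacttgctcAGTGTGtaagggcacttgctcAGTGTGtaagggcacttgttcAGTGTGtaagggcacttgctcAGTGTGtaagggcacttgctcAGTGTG
4930444P10Rik, chr1:16071432-16071551: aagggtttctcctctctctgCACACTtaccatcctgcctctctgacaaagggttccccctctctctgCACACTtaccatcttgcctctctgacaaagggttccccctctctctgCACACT

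The second kind was the alternating tract. Here the capitals mark runs of at least 12 alternating purines and pyrimidines, and the stretches show how unbroken (Fam71e2 and Mxi1, both rich in CpGs) or how interrupted (Agbl4 and Bend5, which overlap) they were.
Fam71e2, chr7:4755319-4755438: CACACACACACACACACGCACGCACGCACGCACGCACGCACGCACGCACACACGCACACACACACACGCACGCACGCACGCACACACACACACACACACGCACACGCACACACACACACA
Mxi1, chr19:53348770-53348889: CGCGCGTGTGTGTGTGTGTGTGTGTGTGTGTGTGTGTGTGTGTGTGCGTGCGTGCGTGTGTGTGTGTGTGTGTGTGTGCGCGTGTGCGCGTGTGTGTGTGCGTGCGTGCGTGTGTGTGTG
Agbl4 and Bend5, chr4:111438942-111439061: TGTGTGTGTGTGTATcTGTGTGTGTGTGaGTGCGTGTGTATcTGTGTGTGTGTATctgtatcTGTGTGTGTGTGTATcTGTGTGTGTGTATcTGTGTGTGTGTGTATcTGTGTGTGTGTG

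Many peaks with tracts held the element as well. The stretch from Hhat, with a period of 2 bp, 30 tracts and 63 copies of CACACTC, is shown with AGTGTG in capitals, where each copy breaks the alternation of TG.
Hhat, chr1:192671248-192671367: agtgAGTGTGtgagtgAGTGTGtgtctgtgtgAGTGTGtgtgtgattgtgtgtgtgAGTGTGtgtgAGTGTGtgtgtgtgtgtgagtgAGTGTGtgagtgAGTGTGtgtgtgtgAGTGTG

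The third kind had no alternating tract and no tandem period at the limit of 60% self-identity, and it numbered 14 peaks. CACACT was present in all 14 and CACACTC in 12 (85.7%, 60.1 to 96.0%). The medians were 14 copies of CACACTC and a self-identity of 52.5% (48.8 to 54.1% between the quartiles). The stretch from the Cbr2 peak shows the element in capitals. That peak had 14 copies of CACACTC, and its best self-identity, 53.5% at a lag of 23 bp, was below the limit of 60% for a tandem period. By eye the stretch still repeats about every 23 bp, so the limit alone keeps this peak out of the first kind. The peak over the coding part of the last exon of Zbtb43, with no copy of CACACTC and a self-identity of 29.0%, is not typical of the 14 and is shown for contrast.
Cbr2, chr11:120731459-120731578: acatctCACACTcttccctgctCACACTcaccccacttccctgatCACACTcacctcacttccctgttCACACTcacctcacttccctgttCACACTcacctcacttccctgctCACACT
Zbtb43, chr2:33453855-33453974: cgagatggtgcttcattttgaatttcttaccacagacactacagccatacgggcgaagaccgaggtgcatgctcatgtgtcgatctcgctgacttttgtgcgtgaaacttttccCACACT

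The very wide peaks measured 819 bp at the median (749 to 953 bp between the quartiles) and up to 3663 bp, against a median of 241 bp in the 200 to 300 bp class. They made up 2.99% of autosomal TKO peaks and 8.89% of the bases those peaks cover. Their median TKO score was 1294, with a range from 82 to 3468, against 192 in the 200 to 300 bp class. Within the 435 peaks, width and TKO score had a Spearman correlation of 0.04, across peaks of 1 list that share the same libraries. The peaks just inside the limit measured 700 bp each and lay in Umodl1 (TKO score 2425), near Htr1d (1552) and near Med4 (732). Those just outside lay in Fgfr2 (1 bp under the limit, score 2162), in Rps6kc1 (698 bp, 2029) and near Kcnk1 (698 bp, 518).

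The SssI peaks over the very wide peaks, from a capture that the choice of members did not use, were wide as well. All 435 very wide peaks overlapped an SssI peak (100%, 99.1 to 100%), where 99.4% of all autosomal TKO peaks did, so the overlap itself did not set them apart. Each lay over exactly 1 SssI peak. The SssI peak was at least 700 bp wide for 99.1% of them (97.7 to 99.6%) against 3.65% of the 200 to 300 bp peaks, 60.6% of those of 500 bp to under 700 bp and 11.9% of all autosomal TKO peaks. It covered 92.4% of the very wide peaks wholly. This was also so for 90.7% of the 200 to 300 bp peaks and 92.7% of all autosomal TKO peaks. A wholly covered very wide peak must have an SssI peak of at least 700 bp, so the 99.1% in part restates the limit. The median width of the SssI peak was 978 bp (898 to 1147 bp), against 391 bp over the 200 to 300 bp peaks. Across members the widths in both lists had a Spearman correlation of 0.84 (n = 435, with the reference sequence shared by the lists).

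The extra width on SssI DNA was small and similar in both classes. The SssI peak reached past the TKO edge by a median of 69 bp per side (47 to 93.8 bp). Summed over both sides, the median was 146 bp at the very wide peaks and 146 bp at the 200 to 300 bp peaks. In 402 of the 435 peaks both TKO edges lay inside the SssI peak, and in 12 the SssI peak was the narrower one.

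**Figure D1:**
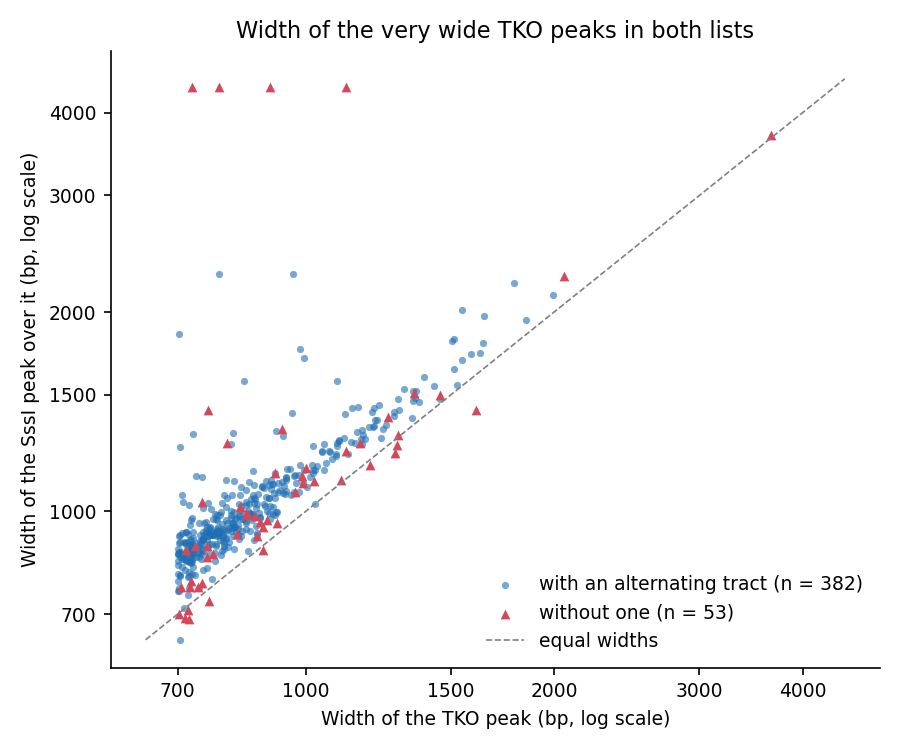
Width of each of the 435 very wide TKO peaks (x axis, bp, log scale) against the width of the SssI peak over it (y axis, bp, log scale), with triangles for the 53 peaks without an alternating tract of at least 12 bp and a dashed line at equal widths. Most points lie slightly above the line, and the 4 triangles at 4367 bp are the TKO peaks of 4930444P10Rik that share 1 SssI peak.

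The converse did not hold at this limit. Of 2205 autosomal SssI peaks of at least 700 bp, 1608 (72.9%) overlapped some TKO peak, but 427 (19.4%) overlapped a very wide one. Over 1181 wide SssI peaks the TKO peaks were all narrower than 700 bp, and over 597 there was no TKO peak. The SssI peaks over the very wide peaks reached past them by a median of 146 bp in sum, so the same limit is stricter on the TKO side. Of the TKO peaks of 500 bp to under 700 bp, 60.6% had an SssI peak of at least 700 bp.

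The SssI peaks over the very wide peaks stood high in the SssI list, but not highest. In 94.9% of cases (92.5 to 96.6%) the SssI peak was in the top 10% of that list by score, against 84.4% for the 200 to 300 bp class and 82.9% of all autosomal TKO peaks. The classes between them reached 98.1% (500 bp to under 700 bp) and 96.4% (over 300 and under 500 bp). Among peaks of like TKO score, between the members' quartiles of 656 and 1988, the shares were 94% (90.1 to 96.5%, n = 218) for the very wide peaks and 95.8% (n = 311) for the 200 to 300 bp peaks. The top 1% of the SssI list held the SssI peak of 12.9% of the very wide peaks, of 23.2% at over 300 and under 500 bp and of 9.06% at 200 to 300 bp. TKO and SssI score had a Spearman correlation of 0.08 across the 435 peaks.

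The highest SssI scores belonged mostly to peaks of moderate width. The first 3 lay in introns of Cep290, which encodes a ciliary protein (846 bp, SssI score 2335), Sox5, a transcription factor gene (704 bp, 2329), and Qrsl1, a gene of mitochondrial translation (760 bp, 2306). Next came a peak near Mark3 (867 bp, 2273) and the Stxbp5 peak (2056 bp, 2236). The Sox5 peak was wider on TKO DNA than on SssI DNA, where it measured 640 bp.

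The lowest SssI scores belonged to an intron of Rab3c (770 bp, SssI score 102, TKO score 538), an intron of Gm45184 (714 bp, 145 and 697) and the array in 4930444P10Rik (SssI score 378). The Rab3c peak ranked in the lower part of the SssI list, 51.1% of the way down. It held a single alternating tract of 66 bp and 44 copies of CACACT.

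Alternating tracts were less often present in the very wide peaks. At least 1 tract of 12 bp or more, not made of A and T alone, was found in 87.8% (84.4 to 90.6%) of them against 97.2% of the 200 to 300 bp peaks. The share without a tract rose with width, from 2.76% at 200 to 300 bp to 3.67% at over 300 and under 500 bp, 6.02% at 500 bp to under 700 bp and 12.2% (9.44 to 15.6%, 53 peaks) at 700 bp or more. At like TKO score the gap was smaller, 89.9% (85.2 to 93.2%) against 92.9% with a tract, and the interval of the first share includes the second.

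In most of the 382 very wide peaks with a tract, the tracts were spread over much of the width. These peaks held a median of 17 tracts (8 to 24) and 427 bp in tracts, against 3 tracts and 116 bp in the 5358 peaks of 200 to 300 bp with a tract. The share of bases in tracts had a median of 49.9% (32.8 to 71.2%), against 47.9%. The first and last tract spanned a median of 85.6% of the peak (76.2 to 91.8%), against 62.1%. These are shares of the width, and a margin of a given length takes a larger part of a narrower peak. The tracts formed 1 cluster, with no gap of 100 bp or more, in 313 of the 382 (81.9%, 77.8 to 85.5%). They formed 2 or more clusters in the other 69 (18.1%, 14.5 to 22.2%), against 0.90% of the 200 to 300 bp peaks with a tract, which have less room for a gap. Of all 435 very wide peaks, 6.90% (4.87 to 9.67%) had 3 or more clusters. The longest tract had a median of 43 bp, against 49 bp.

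The sequence changed sharply at the edges that the peak caller drew. In the 382 very wide peaks with a tract, 57.5% of bases were in tracts 300 to 350 bp inside the edge, 19.3% in the first 50 bp inside, 5.71% in the first 50 bp outside and 2.27% at 950 to 1000 bp outside. CACACT ran from 2.38 copies per 100 bp at 300 to 350 bp inside to 0.12 copies at 950 to 1000 bp outside. In the 53 peaks without a tract the same element ran from 2.51 to 0.17 copies per 100 bp. It is part of a word picked because it recurred inside these 53 peaks, so a rise there is in part built in.

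**Figure D2:**
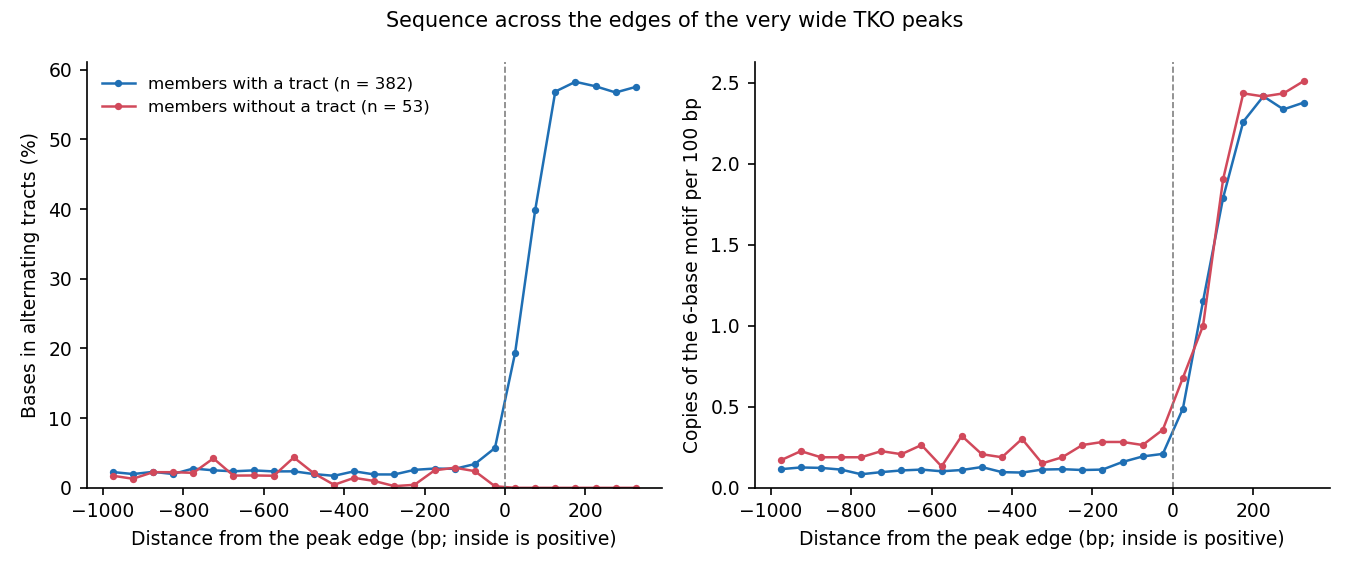
Share of bases in alternating tracts (left, %) and copies of the 6-base element CACACT on either strand per 100 bp (right) in 50 bp bins around both edges of the very wide TKO peaks (x axis, distance from the edge in bp, inside positive), for the 382 peaks with a tract and the 53 without. Tract content rises at the edge in the first group only, as it was defined by tracts, while the element rises in both groups, to 2.38 and 2.51 copies per 100 bp. The element was picked from words that recur inside the 53 peaks, so its rise there is in part built in.

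Tandem repetition was more common in the very wide peaks than in the 200 to 300 bp peaks, but it did not rise steadily with width. A lag of at most 100 bp at which at least 60% of bases matched themselves was found in 75.6% (71.4 to 79.4%) of the very wide peaks, against 50.2% of the 200 to 300 bp peaks. The shortest such lag was 2 bp in 237 peaks (54.5% against 39.8%), as in CA repeats, and 7 to 100 bp in 79 peaks (18.2%, 14.8 to 22.1%, against 5.32%). A further 106 peaks (24.4%) had no such lag. In the other classes a period was found in 63.7% under 200 bp, 52.7% at over 300 and under 500 bp and 62.6% at 500 bp to under 700 bp. Peaks under 200 bp had a period of 2 bp in 51.9% and one of 7 to 100 bp in 6.08%. At 500 bp to under 700 bp these shares were 47.1% and 9.75%. Periods over 6 bp were spread widely, and no single one held more than 5 members.

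The peaks without a tract were mostly such arrays. Of the 53, 38 (71.7%, 58.4 to 82.0%) had a period of 7 to 100 bp, against 41 of 382 (10.7%, 8.01 to 14.2%) among peaks with a tract. The unit was 28 bp in Map6 (66.5% self-identity), a gene of a microtubule-binding protein, and 36 bp in Stxbp5 (88.8%), which encodes the syntaxin-binding protein tomosyn. It was 21 bp in Qrsl1 (65.8%) and 47 bp in 4930444P10Rik (88.1% in the widest of its peaks). The 53 peaks had a median SssI score of 1351 (973 to 1684) against 1314 (1082 to 1611) for those with a tract. In the top 10% of the SssI list were 84.9% (72.9 to 92.1%) of the former and 96.3% (93.9 to 97.8%) of the latter.

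A short element recurred in many of the peaks without a tract. The element was picked after the values were seen, by counting every 7-base word on both strands in the 53 peaks without a tract. CACACTC occurred 3 times or more in 28 of them (52.8%), more than any other word, and ACACTCA followed with 23. The density of CACACTC in the 53 peaks was 1.16 copies per 100 bp, against 0.04 in the 1000 bp on each side. CACACT, which every copy of CACACTC contains, occurred in 44 of the 53 (83.0%, 70.8 to 90.8%), at 2.09 copies per 100 bp against 0.23 in the flanks. CACACTC was present in 16 of the 38 with a period of 7 to 100 bp (42.1%, 27.9 to 57.8%) and in 12 of the 14 with no period (85.7%), and CACACT in 29 (76.3%, 60.8 to 87.0%) and 14. Over all 435 very wide peaks, CACACTC was present in 50.6% (39.8 to 61.4%) of the 79 with a period of 7 to 100 bp, in 71.3% (65.2 to 76.7%) of the 237 with a period of 2 bp and in 91.5% (84.6 to 95.5%) of the 106 with no period. Both words end an alternating tract, since C and T are both pyrimidines.

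The element was not limited to the peaks without tracts. In the 382 with a tract CACACTC was present in 287 (75.1%, 70.6 to 79.2%), at 1.61 copies per 100 bp against 0.05 in the flanks. Other words were as common there. GTGTGTA occurred 3 times or more in 298 of the 382 and CACACTC in 258, and ACACACT also had 1.61 copies per 100 bp. Flanks were counted for CACACT and CACACTC alone, so whether the contrast is particular to them was not tested. A very wide peak held a median of 12 copies of CACACTC (0 to 22) and the 200 to 300 bp peaks a median of 0. The density over whole peaks was 1.55 copies per 100 bp at 700 bp or more, 1.32 at 500 bp to under 700 bp, 0.91 at over 300 and under 500 bp, 0.51 at 200 to 300 bp and 0.41 under 200 bp. The flanks of all these classes were between 0.03 and 0.05 copies per 100 bp.

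In windows of 1 length the rise with width levelled off. The central 200 bp held CACACTC in 65.3% (60.7 to 69.6%) of the very wide peaks, in 69.1% at 500 bp to under 700 bp, in 62.0% at over 300 and under 500 bp, in 48.2% at 200 to 300 bp and in 40.1% under 200 bp. Of all autosomal TKO peaks 51.5% held it there, of all autosomal SssI peaks 21.1%, and of all 200 bp windows of the autosomes 3.37%. For CACACT the shares were 72.6% of the very wide peaks, 62.4% of the 200 to 300 bp peaks, 39.2% of SssI peaks and 13.1% of all windows. A match says that these letters are in the reference, and binding to them was not tested.

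**Figure D3:**
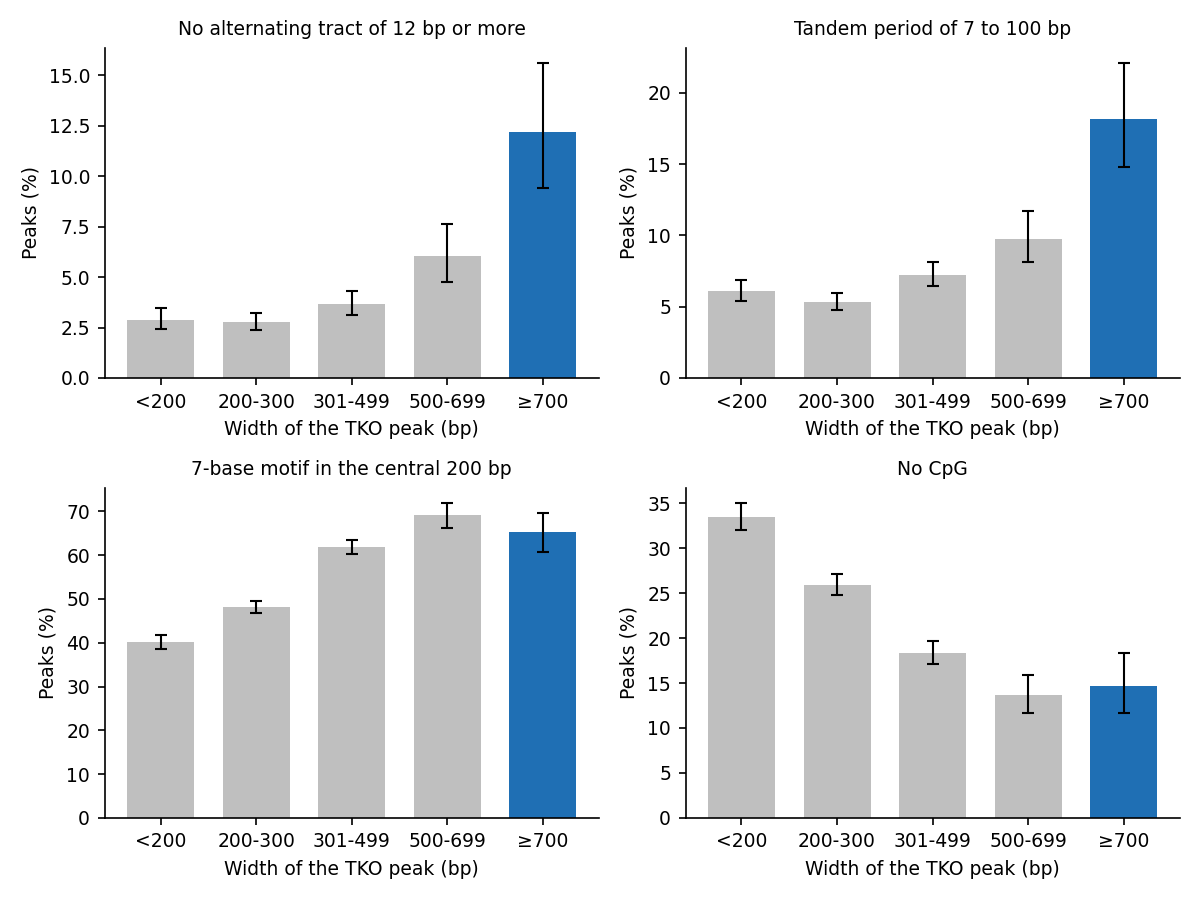
Share of autosomal TKO peaks (y axis, %) by width class (x axis, bp) with no alternating tract, with a tandem period of 7 to 100 bp, with the 7-base element CACACTC in the central 200 bp and with no CpG. Bars are shares and lines are Wilson 95% intervals over peaks, and the blue bars at 700 bp or more show 12.2%, 18.2%, 65.3% and 14.7%. The shares with no CpG are over whole peaks, and narrower peaks have less room for one.

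Long unbroken tracts and the element tended to occur in different peaks, which is in part set by their definitions. The element cannot lie inside a tract. Tracts covered a median of 85.3% of the very wide peaks with a tract of at least 100 bp, which left little room for it. The longest tract reached 100 bp in 64 very wide peaks (14.7%, against 13.4% of the 200 to 300 bp peaks), and 21 of these 64 held CACACTC (32.8%, 22.6 to 45.0%). Among the other 371 it was present in 295 (79.5%, 75.1 to 83.3%). The 200 to 300 bp peaks showed the same split, with 12.4% against 55.2%. Together, 359 of the 435 very wide peaks had a tract of at least 100 bp, the element or both. The other 76 (17.5%, 14.2 to 21.3%) had neither, against 38.8% of the 200 to 300 bp peaks, which have less room for either. In the central 200 bp CACACTC was in 65.3% of the very wide peaks and in 48.2% of the 200 to 300 bp peaks. Of the 76 very wide peaks with neither, 37 held CACACT without the final C.

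**Figure D4:**
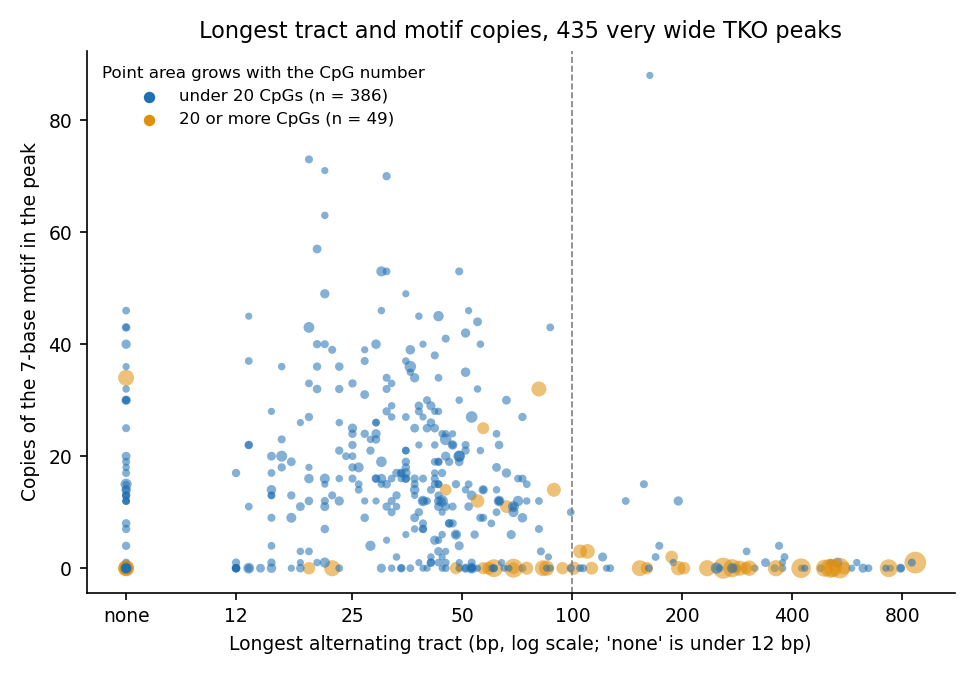
Longest alternating tract (x axis, bp, log scale, with peaks that have none at the left) against the number of copies of CACACTC on either strand (y axis) in the 435 very wide TKO peaks. Orange points have 20 or more CpGs (49 peaks), point area grows with the number of CpGs, and the dashed line stands at 100 bp. Of the 64 peaks on or beyond the line, 21 have a copy.

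With neither a tract nor CACACT there were 9 very wide peaks, and every one was a tandem array. The widest of them lay at Cnmd (chr14:79663517-79664869, 1353 bp, period 34 bp, self-identity 88.9%, SssI score 1087). The next lay in introns of Gbf1 (1284 bp, period 31 bp) and Gm20388 (1163 bp, period 25 bp). The Cdh4 array (868 bp, period 41 bp, 1 CpG) had an SssI score of 2155, in the top 0.14% of that list.

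CpGs were sparser in the very wide peaks as a group, and a minority held very many. They had 0.90 CpGs per 100 bp (0.87 to 0.92, counted over bases) against 1.26 in the 200 to 300 bp peaks, and a median of 3 CpGs per peak (1 to 7). CpGs were clustered in few peaks, so the interval over bases does not cover the spread between peaks. In the central 200 bp the densities were 1.03 and 1.36. At like TKO score they were 1.16 and 1.77. At the other end, 49 very wide peaks (11.3%, 8.63 to 14.6%) held 20 CpGs or more, against 0.64% of the 200 to 300 bp peaks, which have less room for them.

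The most CpGs lay in long alternating tracts. The Fam71e2 peak (chr7:4755216-4756306, 1091 bp), at a promoter, had 97 CpGs and 1 tract of 869 bp, with a TKO score of 1667 and an SssI score of 1045. Mxi1, which encodes a MAX-binding repressor, had 89 CpGs in an intronic peak of 949 bp, a peak near Fmnl3 had 85 in 791 bp, and one over an annotated exon of Shq1 had 76 in 890 bp. In Rere, a gene of a nuclear receptor coregulator, a peak of 1788 bp with 71 CpGs was an array with a period of 48 bp, without a copy of CACACT.

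M.SssI can add methyl groups at CpGs alone. In the reference, 64 very wide peaks (14.7%, 11.7 to 18.4%) had none, against 26.0% of the 200 to 300 bp peaks. These shares are over whole peaks, and the shorter peaks have less room for a CpG. In the central 200 bp the median was 0 CpGs per 100 bp in the very wide peaks and 0.5 in the 200 to 300 bp peaks. Of the 64 very wide peaks without a CpG, 58 (90.6%, 81.0 to 95.6%) had an SssI peak in the top 10%, with a median SssI score of 1224. With 1 to 5 CpGs the share was 96.6% (93.3 to 98.2%) and the median score 1409 (n = 232), and with 20 or more it was 87.8% (75.8 to 94.3%) and 1124 (n = 49). SssI score and CpG number had a Spearman correlation of -0.01 across the 435 peaks. The widest without a CpG lay near Fam135b (1587 bp, 88 copies of CACACTC, SssI score 622), in 8030443G20Rik (1545 bp, 71 copies, 1224) and near Pnrc1 (1315 bp, 40 copies, 1313).

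The widest peak of all lay in an intron of Map6 (chr7:99296519-99300181, 3663 bp), with a TKO score of 1767 and an SssI peak of 3705 bp that scored 1547. It had 125 copies of CACACT, 2 CpGs and no tract. The peak of Stxbp5 (chr10:9853355-9855410, 2056 bp), at a promoter, had a TKO score of 1293, 87 copies and 47 CpGs, and no tract either.

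The next of the widest were rich in tracts. In introns of Kcnk9, a potassium channel gene (chr15:72539658-72541650, 1993 bp), and of Agbl4 with Bend5 (chr4:111438089-111439726, 1638 bp) the peaks held 54 and 80 tracts, none over 56 bp. Their SssI scores were 2125 and 1404. The peak in Hhat, which encodes the acyltransferase of Hedgehog ligands (chr1:192669613-192671461, 1849 bp), had 63 copies of CACACTC, 30 tracts of at most 21 bp and an SssI score of 1313. The peaks near Dlg1 (1647 bp) and Lmo4 (1628 bp) had 44 and 63 tracts, with 39 and 49 copies of CACACTC and SssI scores of 1682 and 1224.

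The Zbtb43 peak was the least repetitive of the very wide peaks. It lay at chr2:33453597-33455206 (1610 bp) and had a TKO score of 3077, rank 52 of the list. It held no tract, no 50-base stretch that recurs in the genome and 45 CpGs, and its best self-identity was 29.0%, the lowest of the 435. The coding part of the last exon, on the minus strand, runs from 33453700 to 33455123 in the longest annotated version. The TKO peak reached 103 bp and 83 bp beyond it on each side. The SssI peak ran from 33453695 to 33455117, started 5 bp before the coding part and ended 6 bp before its other end, and scored 495.

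A second TKO peak of 292 bp (chr2:33462164-33462455, score 374) and an SssI peak of 143 bp (score 14) lay over an upstream coding exon of the same gene, from 33462266 to 33462353. The protein used for capture had been made in E. coli from a cloned mouse Zbtb43 cDNA, and the TKO and SssI peaks here were called against MBP alone. Whether the captured fragments came from genomic DNA or from the expression construct was not tested.

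**Figure D5:**
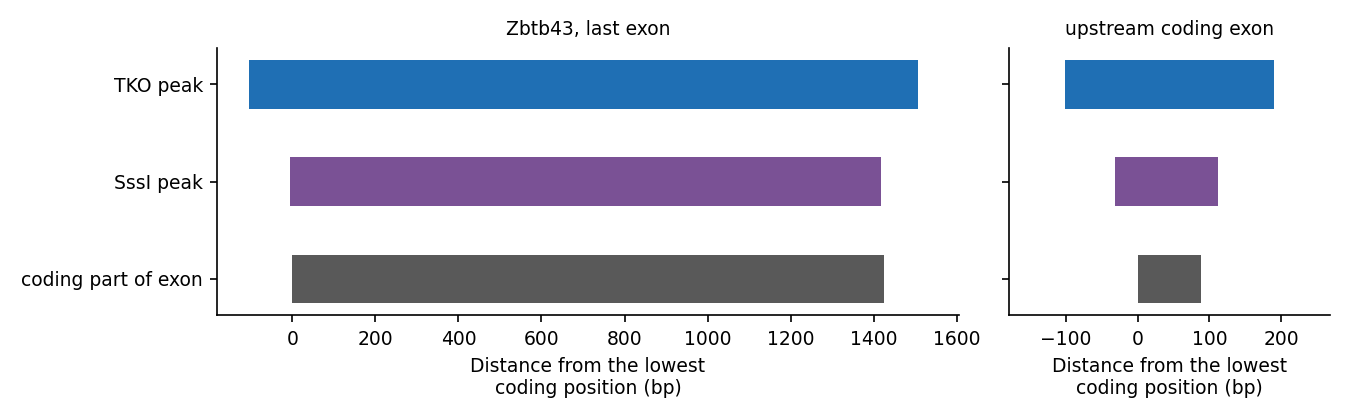
Position of the TKO peak, the SssI peak and the coding part of the exon (rows) at the last exon of Zbtb43 (left) and at its upstream coding exon (right), as distance from the lowest coding position in bp (x axis). The SssI peak of 1423 bp follows the coding part of 1424 bp to within 6 bp at each end, and the TKO peak of 1610 bp extends beyond it on both sides.

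The reads were paired and 50 bp long, so a read whose 50 bases recur has no single place by its own sequence. For these lists the methods name no filter on mapping quality before peak calling. Of the 50-base stretches of the very wide peaks 26.6% occurred more than once in the genome on either strand, against 14.3% in the 200 to 300 bp peaks. Most of the recurrence was within the peak itself, since 11.0% of the stretches had a copy outside their own peak, against 13.6%. The peaks without a tract had a median of 40% recurring stretches (17 to 71.4%) and those with a tract 14.5%. In 58 very wide peaks no stretch recurred, and in all 58 the SssI peak was also at least 700 bp wide. Only exact matches in the reference were counted, and the part of read placement in the width was not tested for these 58 or the others.

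The array in 4930444P10Rik was split in the TKO list and whole in the SssI list. In the TKO list 4 very wide peaks of 786, 1119, 728 and 906 bp, with TKO scores of 129, 162, 267 and 82, stood in a row from chr1:16070443 to 16074848. In the SssI list a single peak of 4367 bp covered them. All 4 had a period of 47 bp and no CpG, and 88.7% to 100% of their 50-base stretches recurred in the genome. A pair of peaks in CT485616.1, on chromosome 17, likewise shared an SssI peak of 2286 bp, so the 435 very wide peaks lay over 431 SssI peaks.

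By midpoint, 53.6% (48.9 to 58.2%) of the very wide peaks lay in introns, 38.6% between genes, 6.90% within 3000 bp before a start site and 0.92% in exons. For the 200 to 300 bp peaks these were 44.8%, 45.2%, 8.84% and 1.18%. At like TKO score the intron shares were 52.8% (46.1 to 59.3%) and 48.2%. All 19 autosomes held very wide peaks, from 11 on chromosome 19 to 32 on chromosome 2. The number per 100 Mb ran from 10.6 on chromosome 3 to 23.1 on chromosome 15.

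Genes with more than 1 very wide peak were few. The midpoints lay in 241 genes, of which 9 held 2 or more. Gm20388, a long annotated transcript on chromosome 8, held 5, with periods of 25, 2, 16 and 2 bp and 1 without a period, and SssI scores from 1099 to 2190. Itga9, an integrin gene, held peaks of 1011 and 1153 bp, and Ncald, a gene of a neuronal calcium sensor, peaks of 1233 and 710 bp. Ncam1, a neural adhesion gene, Schip1 and Ksr2 held 2 each as well. A further TKO peak of any width lay within 10 kb of 26.4% of the very wide peaks, against 19.3% of the 200 to 300 bp peaks.

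Coding sequence was touched by 1.84% of the very wide peaks, against 1.03% of the 200 to 300 bp peaks. Beside Zbtb43 the widest were at Il20, a cytokine gene (1104 bp, period 50 bp, no tract), Spg11 (971 bp, 53 copies of CACACTC), Plxna2, a semaphorin receptor gene (866 bp, 29 copies), Sec14l2 (815 bp, 20 CpGs) and Cbr2 (750 bp, no tract, 14 copies). In each of these the midpoint lay in an intron or, for Cbr2, at a promoter.

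Counts were small in the 12 gene groups looked at by symbol. Solute carrier (Slc) genes held 5 very wide peaks (1.15%, 0.49 to 2.66%, against 0.94% of the 200 to 300 bp peaks), and cadherin genes 3 (0.69%, against 0.62%), in Cdh23, Cdh4 and Pcdh7. Calcium channel (Cacn), collagen, and Zfp or Zbtb genes held 2 each. Kcn, Dock, Ptpr and glutamate receptor genes held 1 each, and the Arhgap and Arhgef, Adam and Adamts, and Myo groups 0 (Wilson upper bound 0.88%). The shares of these groups in the 200 to 300 bp peaks all lay within the intervals.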

How the data were processed

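Affinity-seq peak lists of 2 DNAs were used, 1 made with MBP-ZBTB43 over MBP on TKO ES DNA and 1 on SssI lung DNA. Per the methods, the authors used BWA 0.7.17 (mem) on mm10, pooled duplicates, and ran MACS2 2.2.7.1 with default settings and the MBP libraries as control. The submitters' processing notes also name bcl2fastq 1.9.0, deepTools 3.4.3 and SAMtools. The deposited score is 10 times −log10 of the q-value. The lists hold no read counts, so depth per sample and its precision are unknown.

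Members, comparison classes, gene lists and the element CACACTC were chosen with earlier results of these data known. Sequence was read from the RefSeq GRCm38 FASTA and genes from GENCODE M21. Peaks were placed by their midpoint (promoter within 3000 bp, then exon, intron, intergenic). Tracts were runs of at least 12 alternating bases, clusters lay 100 bp or more apart, and periods were the shortest lag up to 100 bp with 60% self-identity. Exact 50-base matches were counted on both strands. Regions were named by rank of width, SssI score and CpG number, by gene and by coding overlap, and members on chromosome 18 were counted but not named. Functions were tested on simulated data with known answers. Python 3.11.15, numpy 2.4.6, pandas 2.3.3, numba 0.67.0, statsmodels 0.14.6 and matplotlib 3.10.9 were used. No p-value was computed. Alternatives covered the width limit, score, overlap, merging, tract and period limits, windows and annotation.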

Additional observations from a re-analysis of the deposited data

How the results depend on the processing

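Of 57 alternative settings, 30 left the value inside its interval (a count within 1.5 times) and 27 moved it. The cause of these moves was not tested. For CpG density and repeated stretches the interval was over bases or stretches, so small shifts also counted as moved. A width limit of 600 bp gave 781 members and one of 1000 bp gave 91. At 600 bp the share with an SssI peak of at least 700 bp was 96.2%, CpGs were 0.94 per 100 bp and repeated 50-base stretches 23.3%. At 1000 bp these were 100%, 0.68 and 33.7%, with tracts in 82.4% and 3 or more clusters in 12.1%. Between the members' TKO score quartiles, clusters were 4.13%, CpGs 1.16 and repeated stretches 26.3%. Without any repeated stretch (58 members), wide SssI peaks were 100%, the top 10% held 98.3% and CpGs were 0.61. An SssI limit of 500 bp gave 100%, and the top 5% of the SssI list held 68.5%. Tract minimums of 16 and 24 bp gave 82.1% and 71.3% with a tract, 16 bp gave 14.7% with 3 or more clusters and a cluster gap of 200 bp gave 0.69%. In the central 200 bp, tracts were found in 81.6%, a period in 92.6% and 1.03 CpGs per 100 bp. A self-identity of 70% left a period in 40.2%. CACACT in place of CACACTC, an alternative chosen after seeing the data, was held by 83.0%. Merging, a stricter q-value and including X and Y gave 474, 435 and 438 members. No paired analysis was possible because the duplicates were pooled and the lists carry no replicate, and for the same reason no replicate could be left out. Exact depth is unknown, and duplicates, read placement and the reference in place of the DNA used limit every value.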

Other observations

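The element CACACTC was also counted in peaks that played no part in picking it. Among 1866 SssI peaks that had neither a TKO peak over them nor an alternating tract, 36.1% (33.9 to 38.3%) held it, at 0.46 copies per 100 bp against 0.05 in their flanks, a ratio of 9.60. In the 152 TKO peaks of 200 to 300 bp without a tract, 46.7% (39.0 to 54.6%) held it, at 0.66 against 0.05 copies per 100 bp. In both sets CACACT was present more often, in 54.4% and 73.7%.

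The sex chromosomes held 3 further TKO peaks of 700 bp or more, which are not among the 435.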
